A study of Mus musculus with 18 samples.

Results

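The genes described here are the nuclear-encoded protein-coding genes of respiratory complexes II to V and of cytochrome c, measured by RNA sequencing of mouse left ventricle (LV). They were taken from the count table by symbol: the succinate dehydrogenase subunits (Sdha to Sdhd) and their assembly factors (Sdhaf), the complex III genes (Uqcr, Uqcc and Cyc1), the carrier gene Cycs, the cytochrome c oxidase genes Cox4 to Cox8, and the Atp5 genes of ATP synthase. Of 55450 genes in the table, 57 protein-coding genes carried such a name, and 54 of these had a mean raw count of at least 10 over the 18 libraries. The 3 left out were Cox7b2, with a mean raw count of 4.22, and Cox8c and a second gene model of Atp5o, each with a count of 0 in every library. Complex II contributed 8 genes (4 subunits and 4 assembly factors), complex III 12 (9 subunits and 3 assembly factors), complex IV 16 (15 subunits and the supercomplex factor Cox7a2l) and complex V 17 (16 subunits and Atp5s, which is not a subunit). The subunits that mitochondrial DNA encodes do not carry these symbols and are not described.

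The mice were of strain FVB/N and fell into 4 groups by genotype and diet. Gαq mice overexpress the alpha subunit of the G protein Gq, encoded by Gnaq, under a cardiac-specific transgene, and their controls were wild type (WT) littermates. Males only were studied. From 4 weeks of age each animal ate, for 16 weeks, either control diet (CD) or chow with ertugliflozin (ERTU) at 0.5 mg/g, an inhibitor of the glucose transporter SGLT2. Tissue was taken at the end, at 20 weeks, giving 4 libraries of WT CD, 5 of Gαq CD, 5 of WT ERTU and 4 of Gαq ERTU. Libraries are named here by group and by the running number of the count table, which could not be tied to the sample titles beyond the group. The questions of the design are how the Gαq genotype alters these transcripts and whether ERTU alters them in either genotype.

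Complex II (succinate dehydrogenase) oxidises succinate in the tricarboxylic acid cycle and passes the electrons to ubiquinone. Complex III takes them from ubiquinol to cytochrome c, complex IV (cytochrome c oxidase) passes them from cytochrome c to oxygen, and complex V (ATP synthase) uses the proton gradient built along the way to make ATP. The heart depends on this chain for nearly all of its ATP. Complexes IV and V hold subunits with paralogous genes, and for Cox6a, Cox7a and Cox8 a form typical of heart and skeletal muscle (Cox6a2, Cox7a1, Cox8b) exists beside a form found in most tissues (Cox6a1, Cox7a2, Cox8a).

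Total counts ran from 15383566 to 20908363 per library. Gnaq, the overexpressed gene, was at 45.5 to 229.7 CPM (counts scaled to a common library size) in the 9 WT libraries and at 1641 to 11672 CPM in the 9 Gαq libraries, so that every library matched its genotype. In Gαq it was at 1641 to 11672 CPM on CD and 2236 to 5207 CPM on ERTU. The log2 fold change by ERTU was −1.22 ± 0.52 and did not pass (edgeR quasi-likelihood test, Benjamini-Hochberg adjusted p = 0.653). The part of this difference in the results was not tested. Of 10 cardiomyocyte markers tested, 3 were lower and 1 was higher in Gαq (edgeR quasi-likelihood test, Benjamini-Hochberg adjusted p under 0.05). Over all tested genes 9.92% were called lower and 9.72% higher. The summed level of the cardiomyocyte markers overlapped between groups (44736 to 65501 CPM in WT CD and 54075 to 65389 CPM in Gαq CD). Of 7 fibroblast markers, 5 were higher in Gαq, and their sum was 1346 to 2396 CPM in WT CD and 2248 to 3526 CPM in Gαq CD. Markers of atrium varied widely within groups, from 5.56 to 321 CPM in WT CD and from 14.6 to 907 CPM in Gαq CD. By genotype 2 of 6 endothelium markers were lower (median log2 fold change −0.23). Higher were 2 of 4 skeletal muscle markers tested (median 0.66), 1 of 3 of lymphocytes (1.02) and 1 of 6 of fat (0.91), lists with low counts. Lists for macrophages, smooth muscle, atrium and red blood cells had 0 markers called. The part of these cell markers in the results was not tested, and in bulk tissue fewer cardiomyocytes and less RNA per cardiomyocyte cannot be told apart.

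The transcript levels of the subunits spanned a wide range in WT CD hearts. Levels of different genes were set side by side per kilobase of a reference transcript, and depend on which transcript is chosen. The median subunit stood at 511 CPM per kb in complex II, 584 in complex III, 697 in complex IV and 707 in complex V. Atp5b, the catalytic beta subunit of ATP synthase, was the most abundant of the members at 3219 CPM per kb, followed by Cox4i1 at 2936 and by Atp5a1, the alpha subunit, at 2222. The lowest subunits of complexes II and III, Sdhc and Uqcrq, were at 193 and 333 CPM per kb. In complexes IV and V the lowest were sparsely expressed paralogues, Cox6b2 at 1.41 and Atp5g2 at 4.20 CPM per kb.

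Genotype changed these genes in 1 direction. With diet in the model, 21 of the 54 members were lower in Gαq than in WT and none was higher (edgeR quasi-likelihood test, Benjamini-Hochberg adjusted over 16270 genes), against 9.92% of all tested genes called lower and 9.72% called higher. In all 48 members lay below 0 (49.4% of all genes), and the median log2 fold change was −0.22 over the members and 0.00 over all tested genes. The 4 complexes differed in degree, but this difference was not tested, and they also differ in coding length, as given below. All 4 subunits of complex II were lower (median log2 fold change −0.46), as were 6 of 9 subunits of complex III (−0.32), 5 of 15 of complex IV (−0.15) and 6 of 16 of complex V (−0.15). None of the 7 assembly factors of complexes II and III among the members was called, and their median was −0.02. This does not extend to 3 complex III assembly factors outside the name rule. Their median was −0.26, and Ttc19 was called lower (−0.39 ± 0.08, adjusted p = 0.00115, edgeR), while Bcs1l (−0.25 ± 0.09) and Lyrm7 (−0.26 ± 0.12) did not pass. With library totals in place of the scaling factors the split of calls over all genes moved from 1614 lower and 1582 higher to 1244 lower and 1988 higher, while that of the members was 19 lower and 0 higher. Under each of the 3 scalings every complex had calls in the lower direction only.

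**Figure D1:**
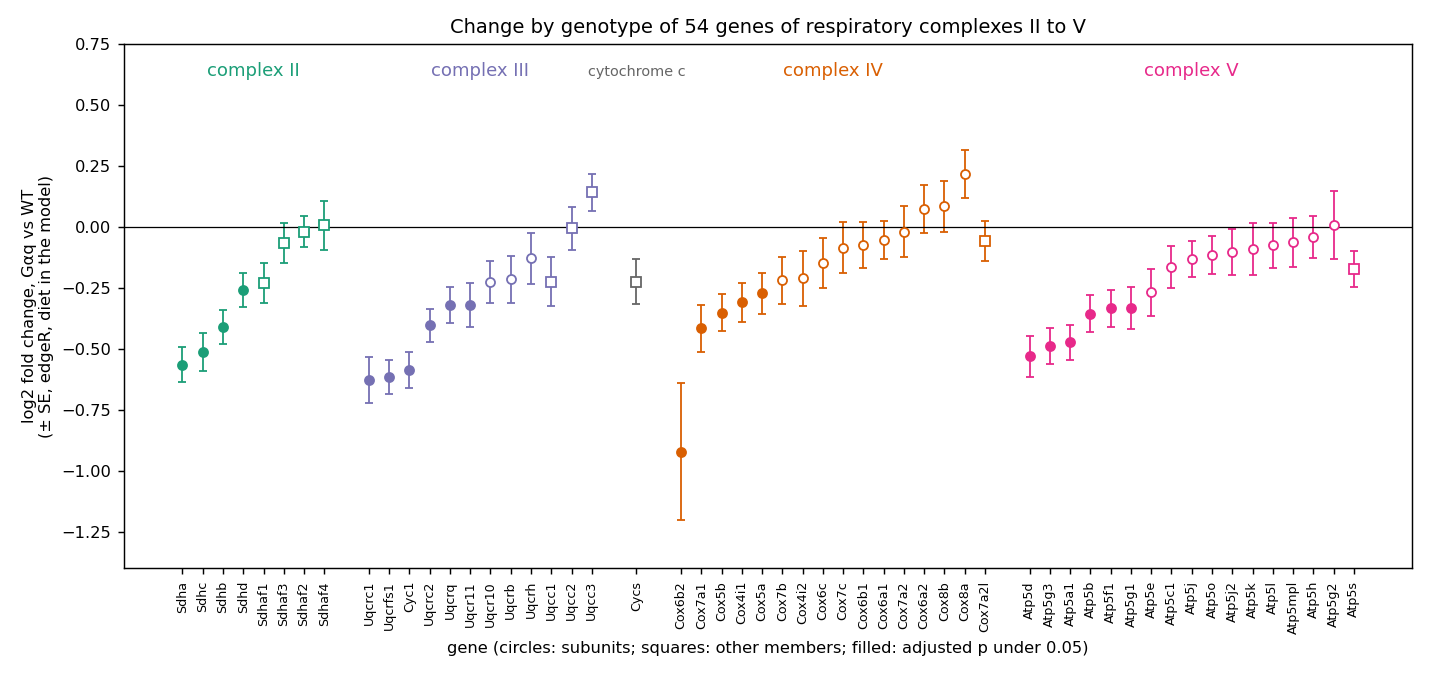
Log2 fold change between Gαq and WT (y axis, ± SE, from the edgeR fit with diet in the model) for the 54 members in 4 complexes and cytochrome c (x axis), with filled symbols for an adjusted p under 0.05, circles for subunits and squares for other members. The 21 filled symbols all lie below 0, and 6 members, all open, lie above 0.

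In the main fit complex II was the only one of the 4 in which each subunit was called. With the level of short genes as a covariate, described below, all 9 subunits of complex III were called as well. Sdha, the flavoprotein that binds succinate (chr13:74322254-74350280, minus strand, GENCODE M21 on GRCm38), was at 1753, 2078, 1747 and 1617 CPM in WT CD, 1978, 1994, 1764, 1756 and 1965 in WT ERTU, 1404, 1133, 1140, 1285 and 1183 in Gαq CD and 1299, 1417, 1209 and 1133 in Gαq ERTU. All 9 Gαq libraries were below all 9 WT libraries, and Sdha fell by 32.4% (log2 fold change −0.57 ± 0.07 SE, adjusted p = 7.48e-06, edgeR). Sdhc, which anchors the enzyme in the membrane (chr1:171127165-171150603, minus strand), read 639, 631, 629 and 549.7 CPM in WT CD and 694, 659, 672, 553 and 653 in WT ERTU, against 487, 421, 345, 489.7 and 447 in Gαq CD and 521, 427, 418 and 409 in Gαq ERTU. Here too the genotypes did not overlap (−0.51 ± 0.08). The iron-sulphur subunit Sdhb changed by −0.41 ± 0.07. The second anchor, Sdhd, had the smallest change of the 4 (−0.26 ± 0.07, adjusted p = 0.0105), and WT CD library 5, at 397 CPM, was within the Gαq CD range of 389.6 to 482 CPM. The 4 assembly factors include Sdhaf2, which is needed to attach FAD to Sdha, and Sdhaf1, which helps to insert the iron-sulphur clusters into Sdhb. Sdhaf1 had a log2 fold change of −0.23 ± 0.08 (adjusted p = 0.0542), and 68.3% of the 100-base windows of its transcripts also occur in another gene. Sdhaf2, Sdhaf3 and Sdhaf4 stood at −0.02 ± 0.07, −0.07 ± 0.08 and 0.01 ± 0.10.

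In complex III the subunits that carry out electron transfer and the core proteins changed most. Uqcrfs1, the Rieske iron-sulphur protein (chr13:30540308-30545362, minus strand), was at 888, 791, 826 and 679 CPM in WT CD and 924, 904, 902, 825 and 846 in WT ERTU. In Gαq CD it was at 586, 530.4, 472, 569.9 and 576 CPM, and in Gαq ERTU at 607, 480.0, 545 and 555 CPM. The 2 genotypes were separate on each diet, and Uqcrfs1 had the smallest adjusted p of the 54 members (−0.61 ± 0.07, 2.09e-06, edgeR). Cyc1, the cytochrome that hands electrons to cytochrome c (chr15:76343523-76346260, plus strand), was at 729 to 899 CPM in WT CD, 753 to 967 in WT ERTU, 473 to 626 in Gαq CD and 535 to 663 in Gαq ERTU, again without overlap (−0.59 ± 0.07). The core protein gene Uqcrc1 (chr9:108936633-108949623, plus strand) was at 1221 to 1315 CPM in WT CD and 619 to 978 in Gαq CD, and at 1068 to 1569 in WT ERTU and 792 to 999 in Gαq ERTU (−0.63 ± 0.09). Uqcrc2, the other core protein, changed by −0.40 ± 0.07, and 21.5% of its windows occur in other genes. Among the small subunits Uqcrq (−0.32 ± 0.07) and Uqcr11 (−0.32 ± 0.09) were called. Uqcr10 (−0.23 ± 0.09, adjusted p = 0.074), Uqcrb (−0.21 ± 0.10) and Uqcrh (−0.13 ± 0.10) did not pass. The assembly factors Uqcc1, Uqcc2 and Uqcc3, which serve the synthesis or maturation of cytochrome b, had log2 fold changes of −0.22 ± 0.10, −0.01 ± 0.09 and 0.14 ± 0.08, none of them called.

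Cycs, the somatic cytochrome c gene, was at 42.8, 38.6, 40.7 and 26.2 CPM in WT CD, 37.0 to 44.7 CPM in WT ERTU, 29.2 to 36.6 CPM in Gαq CD, and 44.2, 30.8, 32.3 and 30.5 CPM in Gαq ERTU. The lowest WT CD value, of library 5, and the highest Gαq ERTU value, of library 16, put the genotypes in overlap, and Cycs did not pass (−0.22 ± 0.09, adjusted p = 0.0963, edgeR). It passed without either of these 2 libraries (−0.29 and −0.29, adjusted p = 0.013 and 0.0254). Of its windows, 24.7% occur in other genes.

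Complex IV was mixed. Cox4i1, which with Cox5a and Cox5b is among the larger nuclear-encoded subunits, was lower in Gαq (−0.31 ± 0.08), as were Cox5b (−0.35 ± 0.08) and Cox5a (−0.27 ± 0.08). Cox5a was called in 15 of 18 fits that each left out 1 library, and its adjusted p was 0.0267 with all libraries. Cox5b was at 336, 313, 350.3 and 262 CPM in WT CD and 332, 334, 387, 311 and 322 in WT ERTU, and at 264, 231, 247, 234 and 269.6 CPM in Gαq CD and 306, 207, 271 and 264 in Gαq ERTU. WT CD library 5, at 262 CPM, was the only WT library within the range of Gαq CD. Cox6b2, the testis-type paralogue of Cox6b1, had the largest fall on the log2 scale (−0.92 ± 0.28, adjusted p = 0.0232), but rested on 5 to 38 reads a library. The remaining subunits of complex IV did not pass: Cox6c (−0.15 ± 0.10), Cox7b (−0.22 ± 0.10), Cox7c (−0.09 ± 0.10), Cox6b1 (−0.07 ± 0.09), Cox4i2 (−0.21 ± 0.11), Cox6a1, Cox6a2, Cox7a2, Cox8a and Cox8b. The last 5 and Cox7a1 are taken up below with their paralogues. Cox7a2l, which joins complexes III and IV in supercomplexes, was at −0.06 ± 0.08.

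In complex V the catalytic subunits, 2 of the 3 c-ring genes and part of the stalks were lower. Atp5a1 was at 5576, 5862, 5545 and 4977 CPM in WT CD, 6044, 6238, 5677, 5401 and 6120 in WT ERTU, 4429, 3780, 3382, 4186 and 4113 in Gαq CD and 4572, 4256, 4085 and 3965 in Gαq ERTU. No Gαq library reached the lowest WT value (−0.47 ± 0.07, adjusted p = 5.27e-05, edgeR). Atp5b, at 5690 to 7097 CPM in WT CD and 4258 to 5555 CPM in Gαq CD, changed by −0.36 ± 0.07. The central stalk holds the gamma, delta and epsilon subunits, and of these Atp5d (delta, chr10:80138632-80145818, plus strand) changed most, from 343 to 445 CPM in WT CD to 236 to 313 CPM in Gαq CD and from 397 to 483 CPM in WT ERTU to 230.2 to 342 CPM in Gαq ERTU (−0.53 ± 0.09). Atp5c1 (gamma) and Atp5e (epsilon) did not pass (−0.16 ± 0.09, and −0.27 ± 0.09 with an adjusted p of 0.0502). Atp5g3, the main c-ring gene of these hearts (chr2:73908447-73911326, minus strand), was at 1129 to 1449 CPM in WT CD and 869.6 to 1072 CPM in Gαq CD (−0.49 ± 0.08). Atp5g1 (−0.33 ± 0.09) and the peripheral stalk gene Atp5f1 (−0.33 ± 0.08) completed the 6 calls. Other peripheral stalk genes had smaller log2 fold changes and were not called: Atp5o, which links the stalk to the catalytic head, was at −0.12 ± 0.08, Atp5j at −0.13 ± 0.07 and Atp5h at −0.04 ± 0.09. The small membrane subunits Atp5j2, Atp5k, Atp5l and Atp5mpl lay between −0.10 and −0.06 (SE 0.09 to 0.11), and 69.0% of the windows of Atp5l occur in other genes. Atp5s was at −0.17 ± 0.07 (adjusted p = 0.108).

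**Figure D2:**
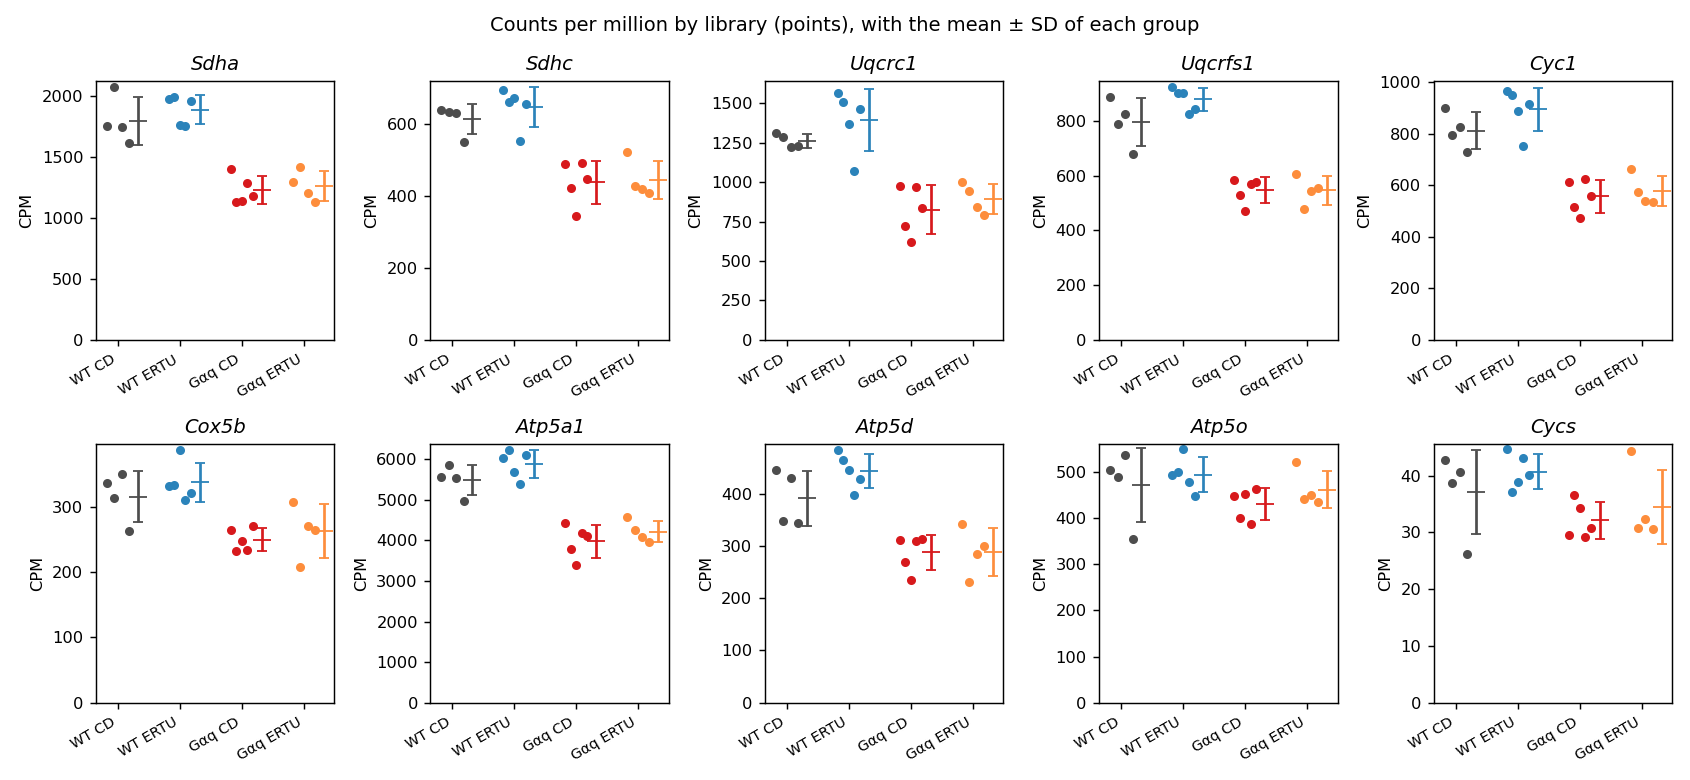
Level in CPM (y axes, from 0) of 10 members in every library of the 4 groups (x axes, points), with the mean ± SD of each group beside them. Sdha, Sdhc, Uqcrfs1, Cyc1 and Atp5a1 do not overlap between genotypes within a diet, while Atp5o and Cycs do.

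The genotype difference was measured separately on each diet, in comparisons that share no library. On CD 13 members were lower and none higher (4.1% of all genes called lower), and on ERTU 11 were lower and none higher (4.24%). Of these, 10 were called on both diets: Sdha, Sdhb, Sdhc, Uqcrc1, Uqcrc2, Uqcrfs1, Cyc1, Atp5a1, Atp5d and Atp5g3. Atp5b, Cox4i1 and Uqcrq were called on CD and not on ERTU (adjusted p = 0.0546, 0.243 and 0.0996), and Atp5f1 on ERTU and not on CD, but no member passed the test of the difference between diets. Complex IV had 1 call on CD, Cox4i1 (−0.38 ± 0.11, adjusted p = 0.0438), and none on ERTU. Across the 54 members, which share libraries and normalisation within each diet, the log2 fold changes on the 2 diets had a Pearson's r of 0.88 and a Spearman's rho of 0.88, and 42 members were below 0 on both. All Gαq CD libraries were below all WT CD libraries for 10 members (4.6% of all genes), and all Gαq ERTU below all WT ERTU libraries for 16 (5.49%).

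The count on CD depended on single libraries. It was 6 without WT CD library 1, 8 without library 2 and 7 without library 4 of the same group or without Gαq CD library 7, and 16 at the highest. Over all genes, calls lower on CD also fell in these fits. They were 403, 439 and 621 without WT CD libraries 1, 2 and 4, and 439 without Gαq CD library 7. With all libraries they were 667. Sdha, Sdhc, Cyc1, Uqcrc1, Uqcrfs1 and Atp5a1 were called on CD in all 18 fits that each left out 1 library. On ERTU the count was 10 to 15 in such fits (466 to 860 of all genes lower), and 10 of the 11 members were called in all of them. By genotype with both diets in the model it was 19 to 25 (1413 to 1718 of all genes lower), and 19 of the 21 were called in all 18.

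The mean level of the subunits of each complex in each library shows where the groups met. Complex II was above its mean over all libraries in 8 of 9 WT libraries and below it in all 9 Gαq libraries, the exception being WT CD library 5 at −0.03 on the log2 scale. All WT libraries were still above the highest Gαq library, at −0.05. For complex IV, 4 of 9 Gαq libraries lay above the mean, from 0.00 to 0.18, and WT CD library 5 lay at −0.20. Gαq ERTU library 17 was the lowest for complex IV, at −0.43, and its complex II was at −0.24. Within groups the members of complex IV moved together from library to library (median correlation of residuals 0.69 over 120 gene pairs), those of complex V less so (0.51 over 136 pairs), and those of complexes III and II least (0.33 over 66 pairs and 0.22 over 28). Pairs across complexes had medians of 0.58 for III with IV, 0.58 for IV with V and 0.51 for III with V. For complex II with III, IV and V they were 0.28, 0.33 and 0.34. The shared movement was thus not particular to single complexes. These correlations were over the 18 libraries after subtraction of the group means and are given as a description.

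**Figure D3:**
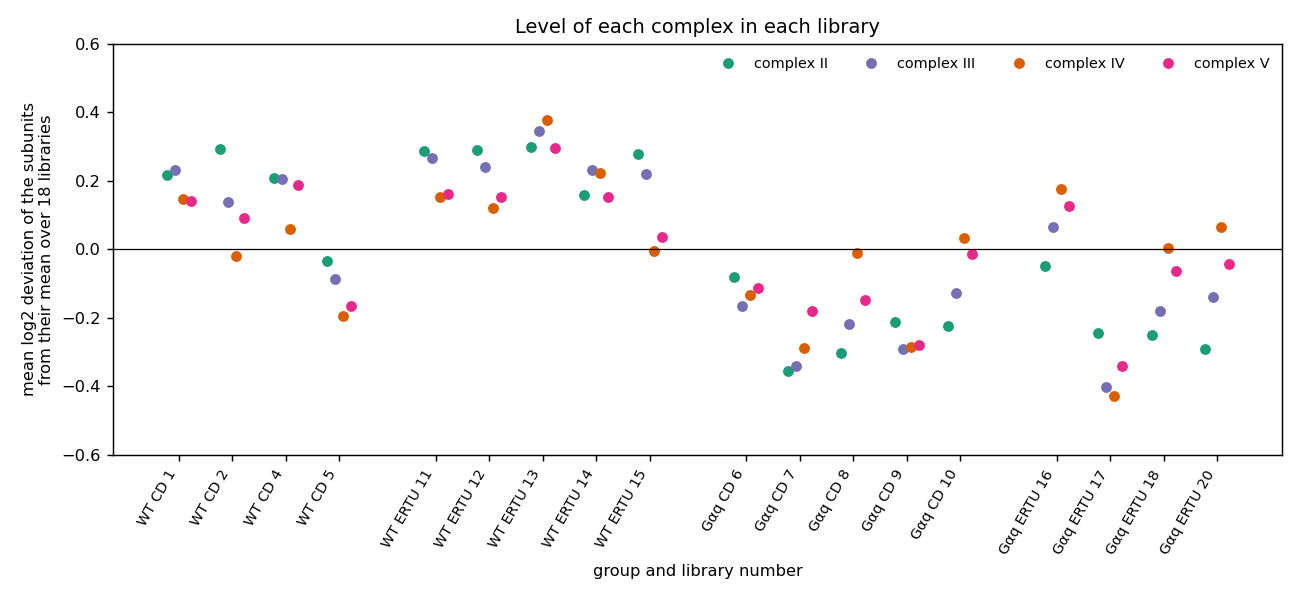
Mean log2 deviation of the subunits of each complex from their mean over all 18 libraries (y axis) in each library (x axis, by group and library number). For complex II all WT libraries, the lowest at −0.03, lie above all Gαq libraries, the highest at −0.05, and complex IV spans −0.43 to 0.18 within Gαq ERTU alone.

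Many members have short transcripts, and these were compared with other short genes in each library. There were 22 members with a transcript under 700 bases, and in Gαq ERTU library 17 they stood at a median of −0.45 below their group mean, as 241 other short genes did at −0.28. In Gαq ERTU library 16 the 2 values were 0.30 and 0.22, and in WT CD library 5 −0.19 and −0.12. The longer members moved as well, to −0.17 in library 17 and 0.19 in library 16, and in WT CD library 5 they were further from the group than the short ones, at −0.25. Other genes with longer transcripts stood at 0.02, 0.00 and 0.01 in these libraries. Among the 44 subunits the genotype change was larger for longer coding sequences. Of 23 subunits with a coding length under 400 bases, 5 were lower (21.7%, against 6.25% of all genes of that length), of 12 from 400 to under 800 bases 8 were (66.7% against 10.8%), and of 9 with 800 bases or more 8 were (88.9% against 11.1%), Atp5c1 being the exception. The median log2 fold changes of the 3 classes were −0.13, −0.29 and −0.47. The subunits of complex II have coding lengths of 477 to 1992 bases, while most of those of complex IV are under 400 bases. Whether the complexes differ apart from coding length was not tested. Spearman's rho between change and coding length was −0.52 over the 44 subunits and −0.06 over 13605 genes, and with the GC content it was 0.04 over the subunits. When the level of the 241 other short genes in each library was added to the model, an alternative chosen after the data were seen, 33 members were lower by genotype and none higher (11.4% of all genes lower), 20 on CD (5.32%) and 23 on ERTU (5.92%). The 12 members added by genotype were Atp5c1, Atp5e, Atp5j, Atp5j2, Atp5s, Cox6c, Cox7b, Cycs, Sdhaf1, Uqcr10, Uqcrb and Uqcrh, and none of the 21 was lost.

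**Figure D4:**
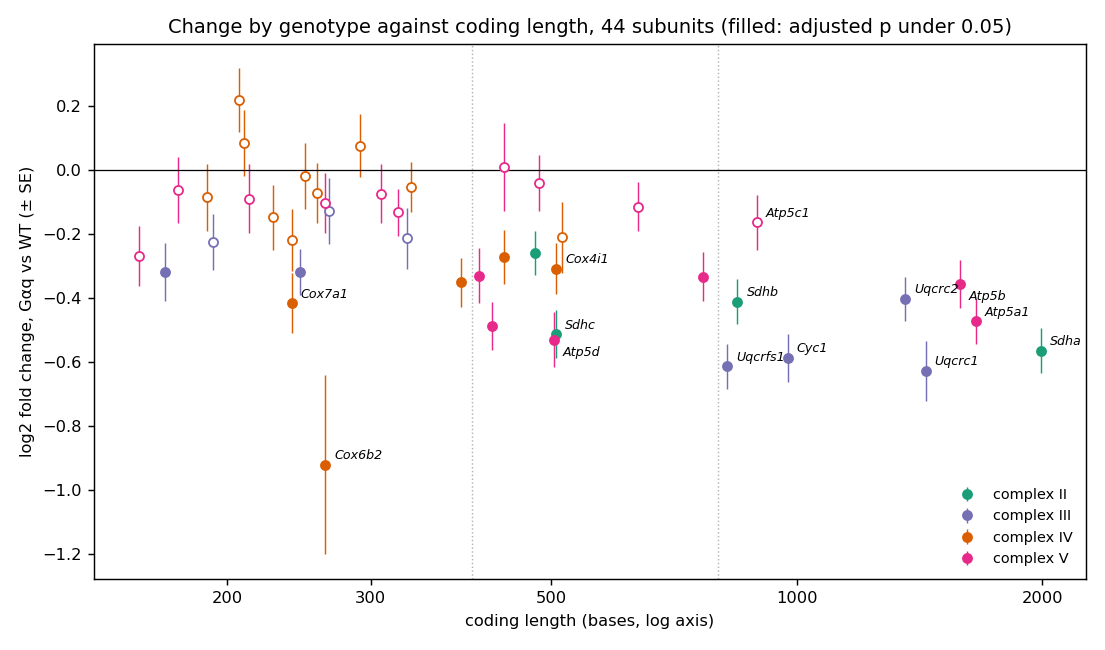
Log2 fold change between Gαq and WT (y axis, ± SE) against coding length in bases (x axis, log scale) for the 44 subunits, coloured by complex and filled for an adjusted p under 0.05; dotted lines mark 400 and 800 bases. Of the 9 subunits at 800 bases or more 8 are filled, and of the 23 under 400 bases 5 are.

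The paralogous subunits were compared as log2 ratios within each library, so that the scaling of the libraries cancels. Of 7 pairs tested by genotype and by diet (2-sided exact permutation of libraries within strata, adjusted over 14 tests, smallest possible p 6.3e-05), 2 changed by genotype and none by diet. Cox7a1, the heart and muscle form (chr7:30184144-30186078, plus strand), exceeded Cox7a2, the widely expressed form (chr9:79755361-79759878, minus strand), 3.10 times per length in WT CD hearts. The log2 ratio of Cox7a1 to Cox7a2 was 0.82, 0.83, 0.92 and 0.99 in WT CD, 0.81, 0.95, 0.92, 0.45 and 1.06 in WT ERTU, 0.52, 0.05, 0.26, 0.61 and 0.57 in Gαq CD and 0.51, 0.70, 0.46 and 0.47 in Gαq ERTU. The CD groups did not overlap, and on ERTU WT library 14, at 0.45, was below all Gαq libraries. The ratio fell by 0.40 on the log2 scale (exact permutation p = 0.000882, adjusted p = 0.00617), by 0.49 on CD and by 0.30 on ERTU. Cox7a1 itself was at 617, 564, 641 and 562 CPM in WT CD and 452, 339, 451, 418 and 543 in Gαq CD, and fell by 25.1% over both diets (−0.42 ± 0.10, adjusted p = 0.00329, edgeR), whereas Cox7a2 was at −0.02 ± 0.10. Cox7a1 is short (a transcript of 393 bases), like Cox7a2 (659 bases).

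For the other muscle forms the ratio did not pass, and the difference between pairs was not tested. Cox6a2 exceeded Cox6a1 10.7 times per length in WT CD hearts, and the log2 ratio was 3.65 ± 0.27 in WT CD (SD, n = 4), 3.61 ± 0.21 in WT ERTU (n = 5), 3.78 ± 0.12 in Gαq CD (n = 5) and 3.75 ± 0.10 in Gαq ERTU (n = 4). This difference of 0.13 by genotype was not larger than the spread between libraries (exact permutation, adjusted p = 0.275). Cox8b exceeded Cox8a 6.61 times per length, and its ratio differed by −0.14 (exact permutation, adjusted p = 0.239), with −0.15 on CD and −0.12 on ERTU. Without WT ERTU library 11 it passed (−0.19, exact permutation, adjusted p = 0.0143). Cox8a had the highest log2 fold change of all members (0.22 ± 0.10) without passing in the main test (adjusted p = 0.137). It was at 109.7, 90.1, 102 and 82.3 CPM in WT CD, 121, 94.1, 113, 109.8 and 84.9 in WT ERTU, 115, 96.5, 124, 110.2 and 129 in Gαq CD and 146, 81.3, 117 and 127 in Gαq ERTU. The lowest of these 18 values came from Gαq ERTU library 17, without which Cox8a passed (0.29, adjusted p = 0.022). Cox4i2, a form induced at low oxygen, was 227 times less abundant per length than Cox4i1, and their ratio differed by 0.10 (exact permutation, adjusted p = 0.546). The ratio of Cox6b2 to Cox6b1 differed by −0.71 without passing (exact permutation, adjusted p = 0.0776).

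In the c-ring of ATP synthase, 3 genes encode the same mature protein with different import sequences. Atp5g3 exceeded Atp5g1 in WT CD hearts, with means of 1354 and 494 CPM. Per length the ratio was 18.1, but it rests on reference transcripts of 714 bases for Atp5g3 and 4715 bases for Atp5g1. Their coding lengths are similar, at 423 and 408 bases. Atp5g2 was at 2.00 to 4.22 CPM in all libraries. The log2 ratio of Atp5g2 to Atp5g3 rose by 0.50 in Gαq (exact permutation p = 0.000882, adjusted p = 0.00617), by 0.53 on CD and by 0.46 on ERTU, with Atp5g3 lower and Atp5g2 at 0.01 ± 0.14. It was −9.03, −8.33, −8.91 and −8.75 in WT CD and −8.16, −8.01, −8.32, −8.52 and −8.11 in Gαq CD, which overlap through WT CD library 2. Of the windows of Atp5g2, 34.7% occur in other genes, so that its few reads are uncertain. The ratio of Atp5g1 to Atp5g3 differed by 0.16 and did not pass (exact permutation, adjusted p = 0.121).

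**Figure D5:**
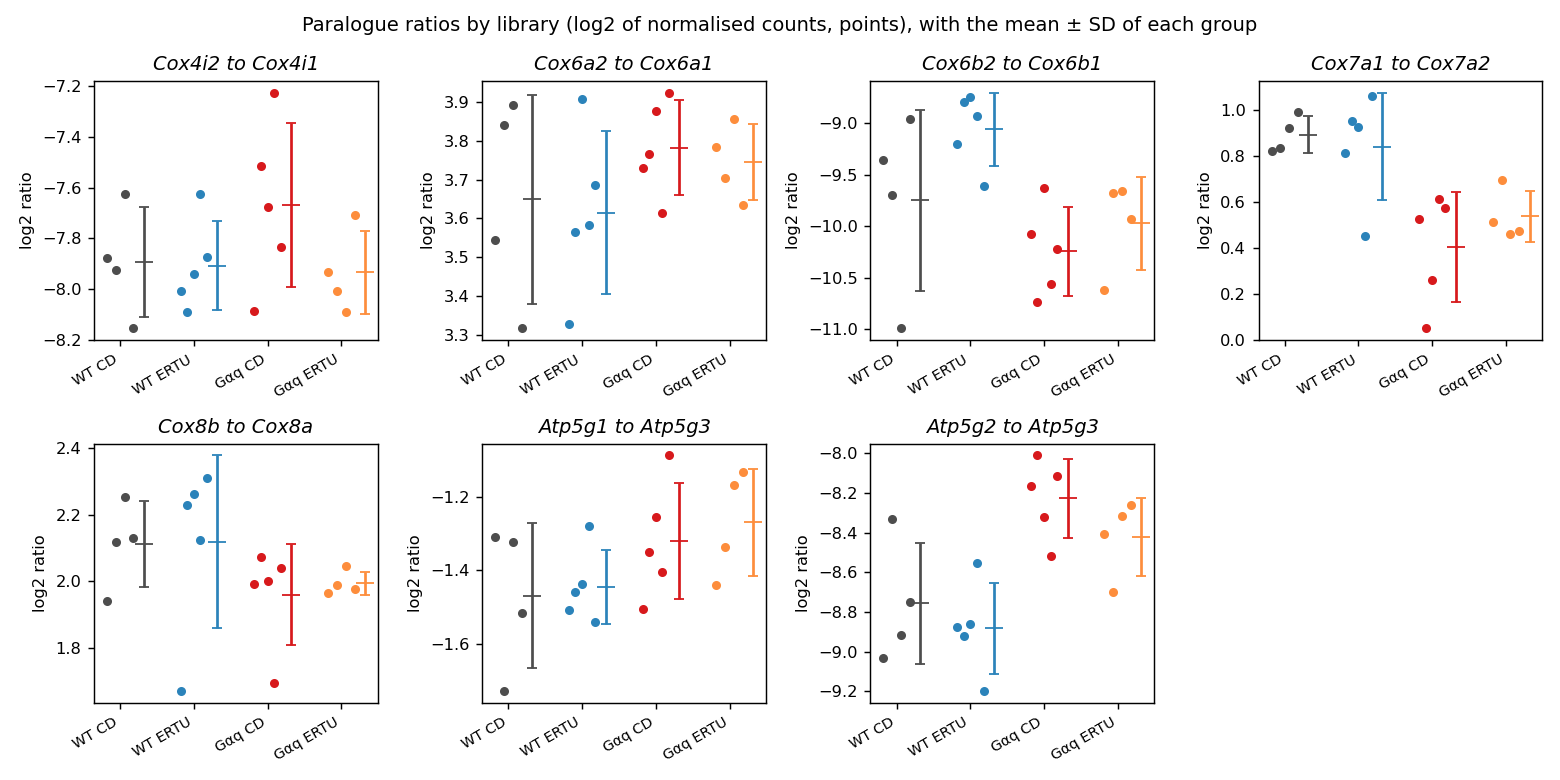
Log2 ratio of normalised counts (y axes, scaled to each pair) for 7 paralogue pairs in every library of the 4 groups (x axes, points), with the mean ± SD of each group beside them. The ratio of Cox7a1 to Cox7a2 is lower and that of Atp5g2 to Atp5g3 higher in Gαq, while the other 5 pairs did not pass the permutation test.

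ERTU did not change any member at the threshold. By diet over both genotypes 0 of 54 members passed (edgeR, with 0% of all genes called), and 1, Cox6b2, had an unadjusted p under 0.05 (0.64 ± 0.28, adjusted p = 0.639). DESeq2 and limma voom gave 0 members as well. The next smallest p-values were those of Cox4i1 (0.16 ± 0.08) and Sdhaf4 (−0.19 ± 0.10). Log2 fold changes were small and mostly above 0: 50 of 54 members were above 0 against 49.5% of all genes, with a median of 0.08. Since members move together between libraries, these are not 54 separate observations. In WT animals ERTU gave 52 members above 0 (51.5% of all genes, median 0.11) and in Gαq animals 40 (48.9%, median 0.06), with 0 called in each by edgeR, DESeq2 and limma voom (0% and 0.00615% of all genes by edgeR), 1 and 0 at an unadjusted p under 0.05, and an SE of 0.09 to 0.16 for the 51 members with a mean of at least 10 CPM. The 2 comparisons share no library. The order of the genotypes turned when WT CD library 5 and Gαq ERTU library 17 were left out, which gave 42 members above 0 in WT (median 0.05) and 49 in Gαq (median 0.12). These 2 libraries were picked after the data were seen, and members were low in both within their group. Leaving them out therefore lowers the ERTU effect in WT and raises it in Gαq by construction, so this fit does not decide the order.

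Cox4i1 had the smallest p by diet after Cox6b2 and was picked for it, from a test that includes the same Gαq libraries. Its larger change in Gαq than that of the median member (0.06) is therefore no separate result, and was not tested. Cox4i1 was at 2426, 2254, 2305 and 1999 CPM in WT CD and 2496, 2355, 2748, 2063 and 2264 in WT ERTU, and at 1851, 1561, 1531, 1649 and 2022 in Gαq CD and 2332, 1811, 1969 and 1993 in Gαq ERTU. The diets overlapped in both genotypes, with log2 fold changes by ERTU of 0.09 ± 0.12 in WT and 0.23 ± 0.11 in Gαq (adjusted p = 0.656, edgeR). Sdha differed by 0.07 ± 0.10 in WT and 0.04 ± 0.10 in Gαq, Uqcrfs1 by 0.15 ± 0.10 and 0.00 ± 0.10, and Atp5d by 0.18 ± 0.12 and 0.01 ± 0.12. For the interaction of genotype and diet 0 of 54 members passed by edgeR (0% of all genes), as by DESeq2 and limma voom, and 0 had an unadjusted p under 0.05. Its log2 values were below 0 for 44 members, and above 0 for 40 without the same 2 libraries, a move whose direction also followed from the choice of libraries. The smallest p-values were those of Sdhaf2 (−0.22 ± 0.12) and Sdhaf3 (−0.21 ± 0.16), both with an adjusted p of 1.00. Sdhaf4 was the 1 member whose diets did not overlap, being at 31.0 to 43.9 CPM in Gαq CD and 27.3 to 30.5 CPM in Gαq ERTU (−0.29 ± 0.14, adjusted p = 0.656, edgeR; 0.854% of all genes were lower without overlap).

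Other genes of the pathway bear on the same complexes. Atpif1, the inhibitor that stops ATP synthase from running in reverse, moved the other way: it was higher in Gαq by 0.87 ± 0.10 (adjusted p = 1.72e-06, edgeR). Of 27 further assembly factors of complexes III to V tested, 10 were lower and 2 higher by genotype, with a median of −0.22, against 9.92% of all genes lower and 9.72% higher. The lower ones include Cox10 and Cox15, which make the haem of complex IV (−0.50 ± 0.10 and −0.35 ± 0.10), Sco2, which delivers copper to it (−0.43 ± 0.12), Taco1 and Lrpprc, which serve the expression of mitochondrially encoded subunits (−0.45 ± 0.10 and −0.48 ± 0.09), and Tmem70, an assembly factor of ATP synthase (−0.49 ± 0.07). Cox19 and Cox20 were higher (0.40 ± 0.09 and 0.26 ± 0.08). Ndufa4, now counted as a subunit of complex IV, was lower (−0.26 ± 0.09, adjusted p = 0.0386). All 7 core subunits of complex I on the list were lower, with a median of −0.35. Of 7 regulators, Ppargc1a (−0.37 ± 0.11), Esrra (−0.25 ± 0.06) and Tfam (−0.33 ± 0.06) were lower, and Nrf1, Gabpa, Esrrg and Ppargc1b did not pass.

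The promoters of the members were read from RefSeq (GRCm38.p6), which held 41 of the 54. The 250 bases before the start were searched on both strands for 5 short motifs tied to mitochondrial or muscle genes. A member counted if any of its promoters held the motif, whereas the percentages are of single promoters, so the 2 are not in the same unit. An ERR half-site (AAGGTCA) was found in 3 of the 41 members (4.08% of 32851 promoters), an NRF1 core (GCGCATGCG) in 5 (1.45%), a GABPA core (CCGGAAG) in 11 (6.91%), an E-box (CAGCTG) in 3 (13.0%) and a MEF2 core in 1, Cox5b (3.2%). Of 14 members called lower by genotype that had a promoter, 1 held the ERR half-site, 0 the NRF1 core, 2 the GABPA core, 1 the E-box and 1 the MEF2 core. Such matches are descriptions of letters and not sites shown to be bound. The sequences below show the promoter of Sdha, which held none of the 5 motifs, the Cox7a pair whose ratio changed, Atp5g3 with its ERR half-site in capitals (read here as the reverse complement), and Cox6a1, a member that did not pass, with the NRF1 core (2 overlapping matches) and the GABPA core in capitals.
Sdha (chr13:74350241-74350490, minus strand): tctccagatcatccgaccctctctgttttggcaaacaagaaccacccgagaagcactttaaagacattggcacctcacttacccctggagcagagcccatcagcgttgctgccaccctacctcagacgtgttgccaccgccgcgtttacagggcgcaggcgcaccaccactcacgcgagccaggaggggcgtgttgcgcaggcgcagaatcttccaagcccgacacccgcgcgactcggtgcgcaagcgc
Atp5g3 (chr2:73911327-73911576, minus strand): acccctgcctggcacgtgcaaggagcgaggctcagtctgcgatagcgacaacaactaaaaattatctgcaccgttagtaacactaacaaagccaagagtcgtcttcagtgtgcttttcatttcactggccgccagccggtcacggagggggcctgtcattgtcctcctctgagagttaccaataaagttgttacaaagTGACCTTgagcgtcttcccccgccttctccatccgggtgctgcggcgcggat
Cox7a1 (chr7:30183921-30184170, plus strand): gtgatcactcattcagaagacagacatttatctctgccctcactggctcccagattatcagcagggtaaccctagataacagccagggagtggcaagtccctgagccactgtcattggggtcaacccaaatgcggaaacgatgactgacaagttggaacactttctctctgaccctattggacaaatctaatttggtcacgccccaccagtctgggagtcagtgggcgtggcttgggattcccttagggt
Cox7a2 (chr9:79759854-79760103, minus strand): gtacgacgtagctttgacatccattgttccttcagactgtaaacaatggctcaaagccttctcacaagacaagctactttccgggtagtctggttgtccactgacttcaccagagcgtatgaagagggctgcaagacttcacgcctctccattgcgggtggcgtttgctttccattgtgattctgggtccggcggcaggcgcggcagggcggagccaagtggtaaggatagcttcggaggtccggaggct
Cox6a1 (chr5:115348959-115349208, minus strand): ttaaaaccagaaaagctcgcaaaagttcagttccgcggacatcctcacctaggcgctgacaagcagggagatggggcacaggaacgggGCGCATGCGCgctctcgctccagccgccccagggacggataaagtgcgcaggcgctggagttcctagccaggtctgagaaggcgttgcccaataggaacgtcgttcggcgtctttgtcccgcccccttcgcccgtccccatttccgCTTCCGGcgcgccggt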

How the data were processed

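RNA was extracted from frozen left ventricle and sequenced. Per the labels the authors aligned reads to mm10 with STAR 2.6.0c and counted genes with featureCounts of Subread 1.6.2 to make the deposited raw count table, and used DESeq2 for a second deposited table of variance-stabilized values on a log2 scale. Counting was of read pairs that aligned properly and to 1 place only, on the same strand, so that pairs matching several genes equally were not counted. Whether replicates came from separate cages or litters is not stated, so p-values measure the spread between these animals' libraries.

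From the counts, edgeR 4.0.16 (R 4.3.3; TMM factors, filterByExpr, quasi-likelihood F tests) was fitted to all 16270 genes that passed the filter, all 54 members among them, with genotype and diet as factors and with 4 group means. The Benjamini-Hochberg adjusted p threshold was 0.05, and an SE is the log2 fold change divided by the square root of F. CPM values are counts divided by the TMM-scaled library size. Of 55450 gene IDs, 55190 (99.5%) matched GENCODE M21, which gave names, types and lengths. Paralogue ratios were differences of log2 CPM with a prior count of 2. A window counted as shared if its 100 bases occur in transcripts of another gene; 6 members exceeded 20%. The deposited variance-stabilized values served only as an alternative for the ratios.

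The members and gene lists were chosen with earlier results of these data known. Members described singly are the 2 called with the largest change per complex, the smallest p-values by diet and interaction, the paralogue pairs and the core subunits; others are given as members of their complex. Alternatives were other scalings, no count filter, DESeq2 1.42.0, limma 3.58.1 voom with quality weights, fits of 2 groups and each library left out. Tests were tested on simulated data.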

Additional observations from a re-analysis of the deposited data

Results flagged for a closer look

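Among the members and ratios described singly, 144 groups of 4 or 5 values were checked for a library far from the others, and 7 were found, where chance at 1 in 20 gives 7.2. The gap to the nearest library is given as a share of the range of the group. Sdhc was low in WT CD library 5 (549.7 CPM, others 629 to 639, gap 0.89) and in WT ERTU library 14 (553 CPM, others 653 to 694, gap 0.714). In Gαq ERTU library 16 it was high (521 CPM, others 409 to 427, gap 0.843). The same library was high for Cycs (44.2 CPM, others 30.5 to 32.3, gap 0.869) and Atp5o (522 CPM, others 436 to 450.1, gap 0.839). Atp5g1 was high in Gαq CD library 10 (484 CPM, others 364 to 398, gap 0.718). The log2 ratio of Cox8b to Cox8a was low in Gαq CD library 9 (1.70, others 1.99 to 2.07, gap 0.786).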

How the results depend on the processing

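Each library was left out in turn and other scalings, filters and tools were run, together with a covariate and a fit without 2 libraries that were added after the data were seen. By genotype the count of members called was 19 to 27 over all of these but the covariate, which gave 33, against 21. These calls were lower in Gαq, except that Cox8a was called higher without Gαq ERTU library 17 alone or with WT CD library 5 (0.29 and 0.25). Over all genes 1244 to 1939 were called lower by genotype in these fits and 1850 with the covariate, against 1614. On CD the count of members was 8 without the count filter, 6 with only the 2 groups fitted, 20 with the covariate, 20 with WT CD library 5 and Gαq ERTU library 17 both left out, and 6 to 16 with each library left out, against 13. In the same order, all genes called lower on CD were 572 of 30773, 484 of 15682, 865 of 16270 and 730 of 16430. They were 403 to 757 with each library left out, against 667 of 16270. On ERTU the count of members was 17 by DESeq2, 23 by voom and 23 with the covariate, against 11. All genes called lower on ERTU rose as well, to 935 of 17626 by DESeq2, 1393 of 16270 by voom and 963 with the covariate, against 690. Without the count filter 30773 genes were tested in place of 16270. The causes of the other moves were not tested. By diet, by ERTU within each genotype and for the interaction the count of members was 0 in each of these fits.

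No member called by genotype changed direction. Those described singly that lay near 0 did. Sdhaf4 was at −0.0030 by voom, −0.0056 with the covariate and −0.022 with both libraries left out, and between −0.039 and 0.055 with each left out. Sdhaf2 was at 0.032 and Cox6a1 at 0.00054 with library totals, and Cox7a2 at 0.036 with library totals and 0.033 with both libraries left out. With each library left out Sdhaf2 ran from −0.065 to 0.00058 and Cox7a2 from −0.066 to 0.060. Atp5g2 was at −0.023 with the covariate and ran from −0.037 to 0.088. Of the members called, Cox5a had an adjusted p of 0.0614 with library totals and 0.0521 without the filter, and Cox6b2 of 0.0777 with both libraries left out.

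Both called paralogue ratios were called under every alternative run for them (a prior count of 0.5, the deposited log2 values, each library left out), Cox7a1 to Cox7a2 at −0.44 to −0.35 and Atp5g2 to Atp5g3 at 0.45 to 0.57. With each library left out, Cox6b2 to Cox6b1 by genotype ran from −0.91 to −0.57 and was called without WT CD library 4, and Cox8b to Cox8a ran from −0.19 to −0.10 and was called without WT ERTU library 11. By diet, ratios that crossed 0 in this way without being called were Cox6a2 to Cox6a1 (−0.091 to 0.0053), Cox7a1 to Cox7a2 (−0.0035 to 0.089), Cox8b to Cox8a (−0.012 to 0.076) and Atp5g1 to Atp5g3 (−0.0057 to 0.066). No paired analysis was possible because the number of each column occurs in 1 group only. Depth limits Cox6b2, with 5 to 38 reads a library, and Atp5g2, at 4.22 CPM at most.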
